A study of Mus musculus with 67 samples.

Results

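The 10 genes described here belong to the circadian clock, and their transcript levels were compared among 3 mouse strains that differ in blood pressure. They were Nr1d1, Nr1d2, Dbp, Tef, Hlf, Per1, Per2, Per3, Ciart and Arntl, taken by gene symbol from the platform's annotation of probe sets. Each had exactly 1 probe set, so they make up 10 of the 38385 probe sets on the array and 10 of its 19147 named genes. Male mice aged 12 weeks gave the aorta, heart, kidney and liver RNA for the 67 single-colour arrays, and they were kept in a 12-hour light and 12-hour dark cycle on standard chow. BPH/2J is the hypertensive strain, with a stated systolic pressure of 142 ± 5 mmHg, BPL/1J the hypotensive strain, with 69 ± 1.7 mmHg, and BPN/3J the normotensive control, with 94 ± 6 mmHg. The kind of error was not stated. All 3 are inbred and carry no engineered allele or treatment, so any gene in which they differ may travel with any other. Aorta had 9 BPH, 9 BPL and 5 BPN arrays, kidney had 5 BPH, 4 BPL and 5 BPN arrays, and heart and liver had 5 of each strain. The labels state 5 mice per strain and do not tie arrays to animals, so aorta arrays may share mice, and p-values measure only the spread between arrays. The hour at which tissues were collected was not given in the sources used here.

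The molecular clock is a feedback loop of transcription. The protein of Arntl, known as BMAL1, pairs with CLOCK on E-box sequences and switches on the Period and Cryptochrome genes, the nuclear receptors Nr1d1 and Nr1d2 (REV-ERB alpha and beta), the repressor Ciart, and the related transcription factors Dbp, Tef and Hlf. Period and Cryptochrome proteins then inhibit that pair, while the REV-ERB receptors repress Arntl through ROR elements, so in mouse tissues Arntl peaks roughly opposite to Nr1d1 and Dbp over the day. A later or earlier clock at a fixed hour would therefore move the genes of the output arm and Arntl in set directions. With 1 unknown hour per animal, a difference in phase, in amplitude and in average level cannot be told apart.

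Promoters from RefSeq (GRCm38.p6), from 250 bases before to 50 bases after a transcription start, are shown for members of each arm. They were searched for motifs of the kinds through which the loop acts. The table held 9 of the 10 members, in 12 windows, and Per2 was not matched. The motifs were searched on both strands: the E-box CACGTG, the D-box TTATGTAA or TTACGTAA, which is bound by DBP, TEF and HLF, and the ROR element TAGGTCA or TGGGTCA. The sequences below run 5' to 3' on the strand of the gene, with these letters in capitals. Per1 is at chr11:69098699-69098998 on the + strand, Per3 at chr4:151044616-151044915 on the - strand, Arntl at chr7:113207261-113207560 on the + strand, Nr1d1 at chr11:98775328-98775627 on the - strand, and Dbp at chr7:45704997-45705296 on the + strand.
Per1: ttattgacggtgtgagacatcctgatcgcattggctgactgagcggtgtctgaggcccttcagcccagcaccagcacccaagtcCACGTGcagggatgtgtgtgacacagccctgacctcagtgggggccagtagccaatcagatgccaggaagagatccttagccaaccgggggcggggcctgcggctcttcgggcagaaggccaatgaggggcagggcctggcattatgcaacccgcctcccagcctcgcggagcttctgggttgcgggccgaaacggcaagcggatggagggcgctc
Per3: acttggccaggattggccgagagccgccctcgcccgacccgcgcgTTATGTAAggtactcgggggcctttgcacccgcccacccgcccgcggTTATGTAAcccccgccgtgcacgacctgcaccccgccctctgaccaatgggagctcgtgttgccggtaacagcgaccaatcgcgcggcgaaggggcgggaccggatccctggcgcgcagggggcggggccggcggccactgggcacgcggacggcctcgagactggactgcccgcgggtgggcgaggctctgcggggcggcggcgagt
Arntl: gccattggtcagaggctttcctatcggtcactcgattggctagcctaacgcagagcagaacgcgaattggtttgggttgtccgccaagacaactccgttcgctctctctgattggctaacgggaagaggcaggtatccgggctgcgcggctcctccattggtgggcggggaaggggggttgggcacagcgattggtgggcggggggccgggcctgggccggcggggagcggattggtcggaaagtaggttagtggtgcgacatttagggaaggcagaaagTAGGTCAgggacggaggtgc
Nr1d1: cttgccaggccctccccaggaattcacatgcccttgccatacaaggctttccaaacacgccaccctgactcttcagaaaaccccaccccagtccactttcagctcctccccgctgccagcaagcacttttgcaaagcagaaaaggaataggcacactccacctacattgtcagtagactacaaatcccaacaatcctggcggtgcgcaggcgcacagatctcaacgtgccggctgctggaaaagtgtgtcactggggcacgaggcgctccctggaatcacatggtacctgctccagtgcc
Dbp: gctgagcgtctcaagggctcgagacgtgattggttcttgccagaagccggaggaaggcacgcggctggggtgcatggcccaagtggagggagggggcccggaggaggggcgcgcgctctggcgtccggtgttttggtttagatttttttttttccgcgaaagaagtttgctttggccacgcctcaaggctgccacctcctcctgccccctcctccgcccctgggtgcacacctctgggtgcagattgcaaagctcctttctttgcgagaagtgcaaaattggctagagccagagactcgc

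The Per1 window shown held 1 E-box and the Per3 window held 2 D-boxes, while the Arntl window shown held 1 ROR element, in its first transcribed bases. Per1 and Arntl each had 2 windows in the table, from different start sites, and their other windows held none of the motifs. No motif was found in the windows of Nr1d1, Nr1d2, Dbp and Hlf. E-boxes were found in 3 members in all, Per1, Tef and Ciart, and the Ciart window held 3 of them. Over all 32851 promoter windows of the table, 7.15% held an E-box, 1.06% a D-box and 6.45% a ROR element. These are matches of letters in a short window and say nothing of binding.

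Markers of each tissue were high on its own arrays. The smooth muscle genes Myh11, Cnn1, Tagln, Acta2 and Smtn lay between percentiles 98.7 and 99.9 of all probe sets in aorta, and the 5 heart markers between 99.4 and 100 in heart. The 4 measured kidney markers lay between percentiles 67.5 and 100 in kidney, and the 2 measured liver markers between 99.1 and 100 in liver. Array medians differed between tissues but not among the strains of a tissue, and no level was set against one from another tissue. Among the members, Nr1d2 was bright in every tissue, with median percentiles between 90.6 in aorta and 95.9 in heart. Arntl was also bright, with median percentiles between 82.0 and 88.9. Nr1d1 had a median percentile of 94.2 in aorta and 87.9 in heart but 75.2 in kidney and 76.4 in liver. Dbp ranged from 49.2 in liver to 76.1 in aorta. Per3 stood at 55.1 in aorta but between 12.0 and 17.6 in the other tissues, and Ciart at 19.4 in kidney and 23.8 in liver. At such low levels a probe set may lie at background, so no fold is given there.

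Members called by limma, at an adjusted p below 0.05 over all probe sets, were few, and each was lower in the first-named strain except Nr1d2 in BPL against BPN liver. In BPH against BPN aorta 3 of 10 members fell, Nr1d1, Nr1d2 and Tef, where 9.15% of all probe sets were called and 4.7% were called lower. In BPL against BPN aorta none of the 10 was called against 10.3% of all probe sets, although 1 passed in some alternative fits. In BPH against BPL aorta Nr1d1, Nr1d2 and Tef fell again, against 11% of all called and 5.36% called lower. In heart, Nr1d1, Nr1d2 and Dbp fell in BPH against BPN (7.02% of all called, 3.51% lower), Tef fell in BPL against BPN (9.34% called, 5.2% lower), and Nr1d1 fell in BPH against BPL (8.57% called, 3.97% lower). In kidney, Nr1d2 fell in BPH against BPN (7.05% called, 3.39% lower), Per2 fell in BPL against BPN (6.24% called, 3.02% lower), and no member was called in BPH against BPL (6.33% called). In liver, Nr1d1 fell in BPH against BPN (7.14% called, 3.85% lower). In BPL against BPN liver Nr1d2 rose and Per2 fell (7.47% called, 3.77% higher and 3.7% lower), and in BPH against BPL liver Nr1d1 fell (5.77% called, 3.09% lower). Hlf, Per1, Per3, Ciart and Arntl were called in none of these 12 comparisons. Comparisons with BPN in a tissue share its BPN arrays. With counts of 0 to 3 in 10, most shares are near the background, and the results below are those of single genes.

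**Figure D1:**
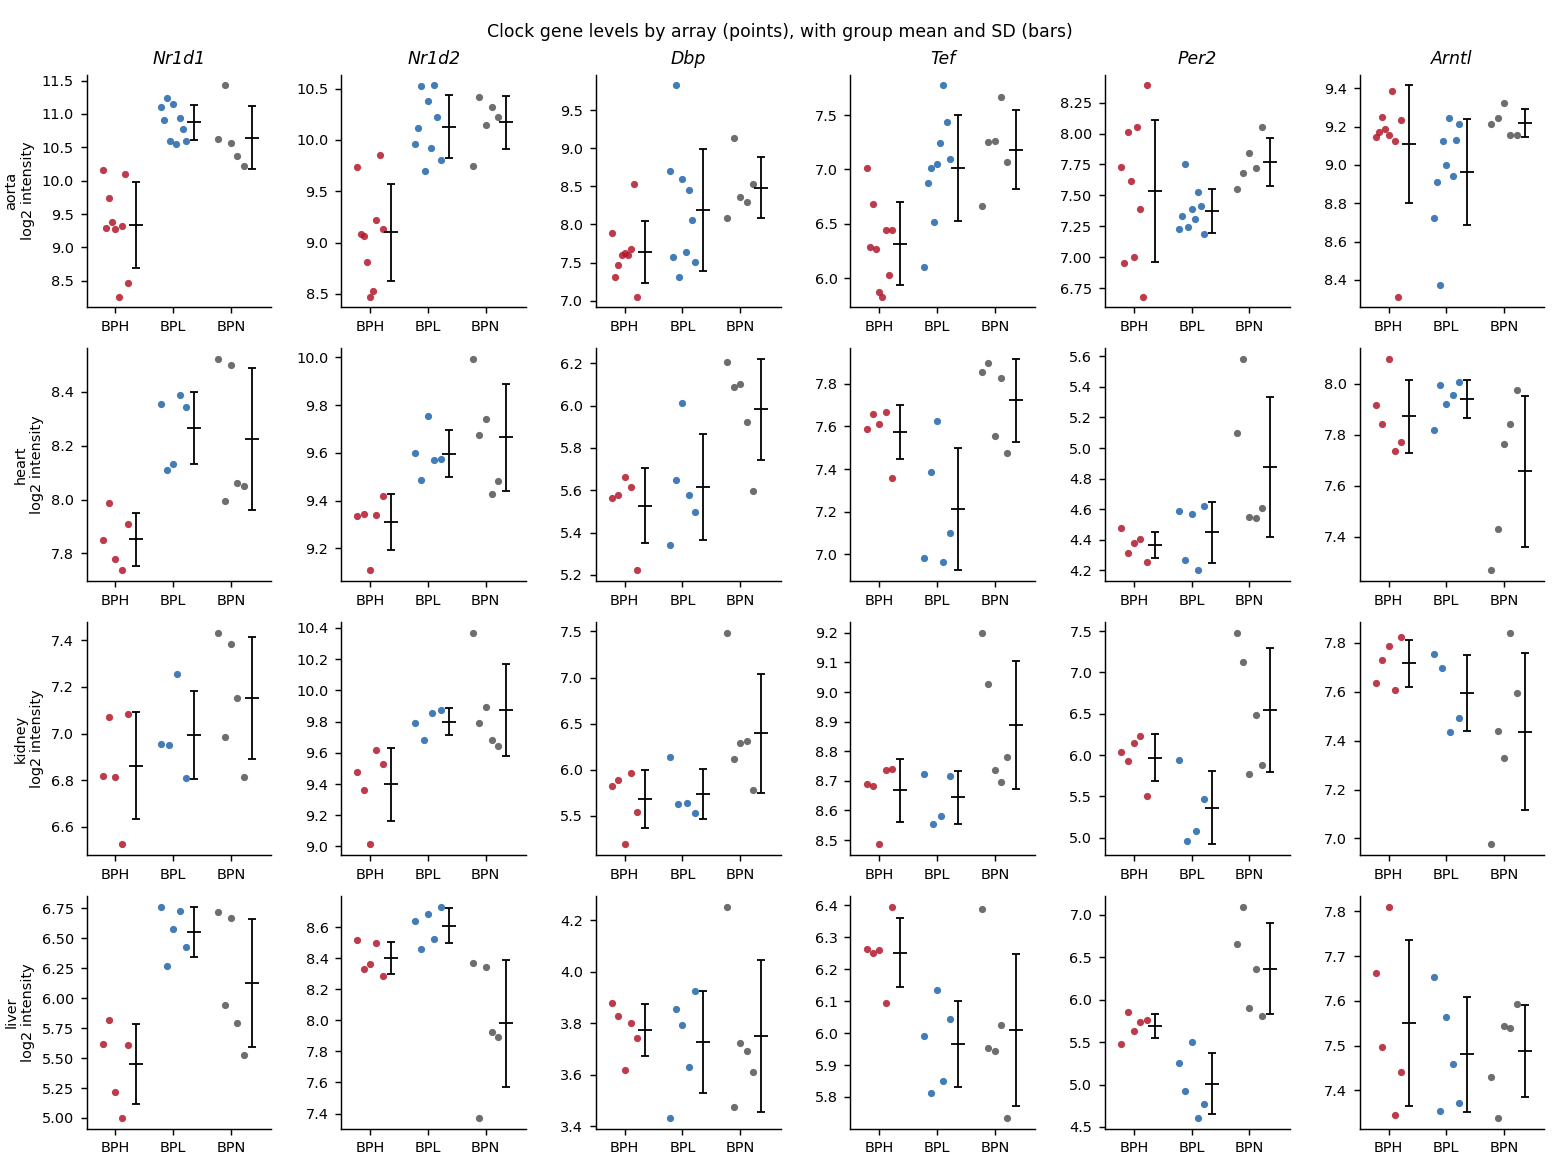
Log2 intensity (vertical axes, scaled for each panel) of 6 clock genes in BPH, BPL and BPN arrays (horizontal axes) of 4 tissues, with each array as a point and the group mean and SD as a bar. All 9 BPH arrays of aorta lie below all BPL and BPN arrays for Nr1d1, and all 5 BPL arrays of liver lie below all BPN arrays for Per2.

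Nr1d1 encodes REV-ERB alpha, a heme-binding repressor that closes the second loop of the clock on Arntl. It was the member most often lower in BPH. In aorta it ran from 8.26 to 10.16, with a median of 9.32, in the 9 BPH arrays and from 10.55 to 11.23, with a median of 10.90, in the 9 BPL arrays, while the 5 BPN arrays read 10.62, 11.43, 10.57, 10.36 and 10.22 (log2 intensity). No BPH array reached the lowest array of either other strain. The difference of BPH from BPN was -1.31 ± 0.25 on the log2 scale (SE), a 2.48-fold lower level, with a limma adjusted p of 0.000753. Against BPL the difference was -1.54 ± 0.21, or 2.91-fold lower. BPL and BPN overlapped in aorta and differed by 0.23 ± 0.25.

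In heart the Nr1d1 levels were 7.85, 7.99, 7.78, 7.74 and 7.91 in BPH, 8.35, 8.11, 8.13, 8.39 and 8.34 in BPL and 8.52, 7.99, 8.50, 8.06 and 8.05 in BPN. The BPH arrays again lay below all others, though the nearest BPN array was almost level with the highest BPH array. BPH differed from BPN by -0.37 ± 0.10 (limma adjusted p = 0.0358) and from BPL by -0.41 ± 0.10 (0.0165). Leaving out 1 array at a time ended the call against BPN in 6 of 10 cases, with adjusted p up to 0.102, and the call against BPL in none of 10.

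In liver, where Nr1d1 was dimmer, the BPH arrays read 5.62, 5.82, 5.21, 5.00 and 5.61, the BPL arrays 6.76, 6.27, 6.58, 6.72 and 6.43, and the BPN arrays 6.72, 5.94, 6.67, 5.79 and 5.53. BPH lay below BPL without overlap, by -1.10 ± 0.20, a 2.14-fold lower level (limma adjusted p = 0.0016). Against BPN the difference of -0.68 ± 0.20 passed only just, at an adjusted p of 0.04999. That call was lost in 7 of 10 fits without 1 array and in 5 of the other alternatives. In kidney the Nr1d1 difference of BPH from BPN was -0.29 ± 0.13 (limma adjusted p = 0.248) and the arrays overlapped. The levels of BPH were thus the lowest of the 3 strains in each tissue by their means, while BPL and BPN did not differ beyond their spread in any of the 4 tissues.

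Nr1d2 encodes REV-ERB beta, a close relative that shares the role of Nr1d1. In aorta it ran from 8.47 to 9.85, with a median of 9.08, in BPH and from 9.70 to 10.53, with a median of 10.12, in BPL, while the 5 BPN arrays read 9.75, 10.42, 10.14, 10.32 and 10.23. Most BPH arrays were below the other strains, but BPH 2 and BPH 10 lay above the lowest BPL array, and BPH 10 also above the lowest BPN array. The difference of BPH from BPN was -1.07 ± 0.20, a level 2.1 times lower (limma adjusted p = 0.000415), and it was called without any 1 array. From BPL it differed by -1.03 ± 0.16.

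In heart, Nr1d2 read 9.34, 9.34, 9.11, 9.34 and 9.42 in BPH, 9.60, 9.48, 9.76, 9.57 and 9.57 in BPL, and 9.99, 9.68, 9.74, 9.43 and 9.48 in BPN. Every BPH array was below every array of the other strains. BPH differed from BPN by -0.35 ± 0.09 (limma adjusted p = 0.0255) and from BPL by -0.29 ± 0.09 (0.0681). In kidney the BPH arrays read 9.47, 9.36, 9.01, 9.61 and 9.53, the BPL arrays 9.79, 9.68, 9.86 and 9.87, and the BPN arrays 10.37, 9.79, 9.89, 9.68 and 9.64. These too did not overlap between BPH and either other strain, and BPH differed from BPN by -0.48 ± 0.13 (adjusted p = 0.0337). The call in heart was lost in 4 of 10 fits without 1 array and that in kidney in 5 of 10. In kidney, 3 arrays stood apart in the adrenal markers Star, Cyp11b1, Cyp11a1 and Th, BPL 1, BPN 4 and BPN 5, with mean log2 levels of at least 7.59, against at most 4.27 in the other kidney arrays. Without them, a choice made after seeing the data, Nr1d2 differed by -0.62 between BPH and BPN (limma adjusted p = 0.0223). That fit kept only BPN 1, 2 and 3 of the BPN kidney arrays, and BPN 1 had the highest Nr1d2 of its strain, 10.37.

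Liver went the other way for this gene. Nr1d2 read 8.51, 8.33, 8.36, 8.50 and 8.29 in BPH, 8.64, 8.46, 8.69, 8.52 and 8.73 in BPL, and 8.37, 7.37, 8.34, 7.93 and 7.90 in BPN. The BPL arrays were all above the BPN arrays, with a difference of 0.63 ± 0.14, or 1.55-fold higher (limma adjusted p = 0.00633), while BPH overlapped BPN and differed by 0.42 ± 0.14 (adjusted p = 0.0791). So in liver the 2 REV-ERB genes had opposite signs in BPH against BPN, whereas in the other 3 tissues both were negative.

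**Figure D2:**
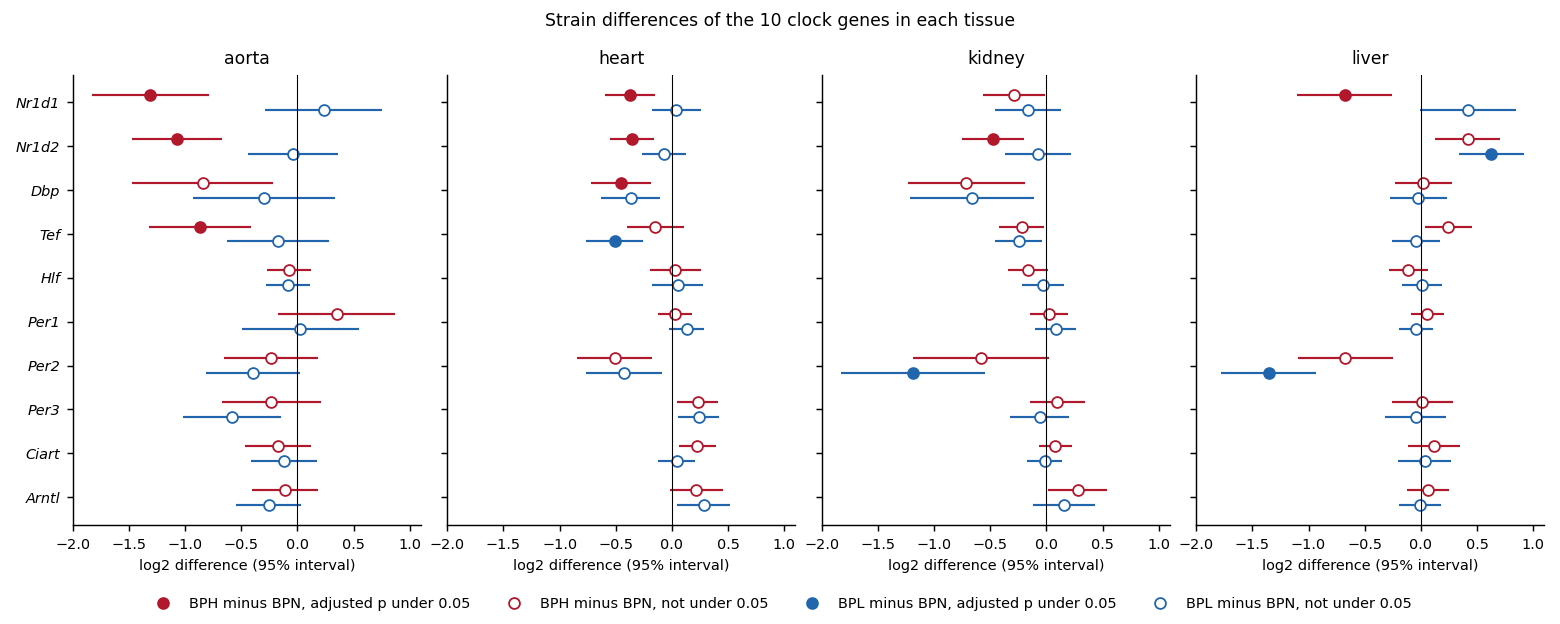
Log2 difference (horizontal axes, with 95% limma intervals) of BPH minus BPN and BPL minus BPN for the 10 clock genes (rows) in aorta, heart, kidney and liver, filled where the adjusted p was below 0.05. The intervals of Nr1d1 lie below 0 for BPH in each tissue, and those of Per2 for BPL reach from -1.83 to -0.55 in kidney and from -1.78 to -0.93 in liver.

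Dbp, Tef and Hlf encode the PAR bZIP factors, transcription activators that act through D-boxes and drive genes of drug and amino acid handling. Tef in aorta ran from 5.83 to 7.02, with a median of 6.28, in BPH, from 6.10 to 7.78, with a median of 7.05, in BPL, and read 6.67, 7.25, 7.26, 7.66 and 7.07 in BPN. The BPH arrays were mostly lower but overlapped both other strains. It differed by -0.86 ± 0.22 from BPN (limma adjusted p = 0.0108), and by -0.69 ± 0.19 from BPL (0.0135). Without BPN 14, the array with the highest Tef, the call against BPN was lost, at an adjusted p of 0.0506. In heart it was BPL that was low in Tef, at 6.98, 7.39, 7.63, 6.96 and 7.10, against 7.86, 7.90, 7.55, 7.83 and 7.47 in BPN, a difference of -0.51 ± 0.12 (limma adjusted p = 0.0105), with BPL 3 within the BPN range. BPL heart also stood apart in muscle markers. Its striated muscle markers had mean log2 levels of 10.71 to 10.78, against 11.02 to 11.15 in BPN, and its smooth muscle markers 6.92 to 7.39, against 6.73 to 6.90 in BPN. Their part in the Tef result was not tested. BPH heart differed from BPN in Tef by -0.15 ± 0.12.

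Dbp, the output gene with one of the widest daily swings in mouse tissues, was called only in heart. There it read 5.56, 5.58, 5.66, 5.61 and 5.22 in BPH, 5.34, 5.65, 6.01, 5.58 and 5.50 in BPL, and 6.20, 6.09, 6.10, 5.92 and 5.60 in BPN. BPH was lower than BPN by -0.45 ± 0.13 (limma adjusted p = 0.0344), with overlap at BPN 5, and this call was lost in 7 of 10 fits without 1 array. In aorta the difference of BPH from BPN was -0.84 ± 0.30 and in kidney -0.71 ± 0.24, larger than in heart but not called (adjusted p = 0.092 and 0.104). The kidney value includes BPN 1, at 7.48, against 5.78 to 6.32 in the other BPN arrays. In liver Dbp was dim and differed by 0.023 ± 0.12. Hlf differed from BPN by between -0.16 and 0.03 in BPH over the 4 tissues and between -0.08 and 0.05 in BPL, none called.

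Per1, Per2 and Per3 encode the Period proteins, which with the Cryptochromes repress the activator pair, and Per1 and Per2 also respond directly to hormonal and other signals. Only Per2 was called, and it was lower in BPL. In liver it read 5.25, 4.92, 5.50, 4.60 and 4.78 in BPL, and 6.66, 7.10, 5.90, 6.36 and 5.81 in BPN, with no overlap. The difference was -1.35 ± 0.20, a 2.56-fold lower level (limma adjusted p = 0.000165), and it was called in each fit without 1 array. BPH liver read 5.48, 5.86, 5.63, 5.74 and 5.76, between the other strains, and missed the threshold against both, at -0.67 ± 0.20 from BPN (adjusted p = 0.0519) and 0.68 ± 0.20 from BPL (0.0555).

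In kidney Per2 read 5.94, 4.96, 5.08 and 5.48 in BPL and 7.48, 7.13, 5.77, 6.49 and 5.89 in BPN. BPL 1 lay above BPN 3 and BPN 5. The difference of -1.19 ± 0.30 (limma adjusted p = 0.0253) was lost in 4 of 9 fits without 1 array. Without the 3 kidney arrays high in adrenal markers it was -1.62 (limma adjusted p = 0.0128), with only BPN 1, 2 and 3 and BPL 2, 4 and 5 left. BPH kidney differed from BPN by -0.58 ± 0.28 (adjusted p = 0.3). In heart Per2 was lower in BPH by -0.51 ± 0.16 (adjusted p = 0.0675), with no overlap, and in BPL by -0.43 ± 0.16, and in aorta the differences were -0.23 ± 0.20 and -0.39 ± 0.20. All 8 differences of Per2 from BPN were thus negative, 2 of them called. Both differences of a tissue share its BPN arrays, so the 8 signs are not separate cases. BPN Per2 also spread widely, with an SD of 0.75 in kidney, 0.54 in liver and 0.46 in heart.

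Per1 was called nowhere, and in heart, kidney and liver its differences from BPN lay between -0.04 and 0.13. In aorta it differed by 0.35 ± 0.25 in BPH and 0.03 ± 0.25 in BPL. Per3 was at a measurable level only in aorta, where BPL differed from BPN by -0.58 ± 0.21 (limma adjusted p = 0.0894) and BPH by -0.23 ± 0.21.

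Ciart, a repressor also known as Chrono, had its largest difference from BPN in BPH heart, at 0.23 ± 0.08 (limma adjusted p = 0.11). Arntl was called in none of the comparisons. Its difference from BPN in BPH was 0.22 ± 0.11 in heart and 0.28 ± 0.12 in kidney, but -0.11 ± 0.14 in aorta and 0.06 ± 0.09 in liver. In BPL it was 0.28 ± 0.11 in heart, 0.16 ± 0.13 in kidney, -0.26 ± 0.14 in aorta and -0.0081 ± 0.09 in liver. The 95% intervals reach from -0.40 to 0.18 for BPH aorta and from -0.12 to 0.25 for BPH liver, the tissues in which Nr1d1 fell the most. Without the 3 kidney arrays high in adrenal markers, Arntl was called higher in BPH against BPN kidney, at 0.47 (limma adjusted p = 0.018), and Dbp lower, at -0.95 (0.0481). That fit kept only BPN 1, 2 and 3 of the BPN kidney arrays. Among all BPN kidney arrays BPN 1 held the highest Dbp (7.48) and the lowest Arntl (6.98), so these calls lean on it.

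With all arrays the tests gave no call for Arntl, so the arms can be set side by side only as values. The 9 members other than Arntl are called output genes here, although several also act within the loop. In BPH aorta 8 of the 9 output genes had negative differences from BPN and so did Arntl. In BPH heart and kidney 5 and 6 of 9 were negative and Arntl was positive. In BPH liver 3 of the 9 output genes were negative. BPL showed similar signs by its means. In BPL kidney every output gene but Per1 was below BPN and Arntl was above. In BPL aorta all but Nr1d1 and Per1 were below BPN, and so was Arntl. In BPL heart Nr1d2, Dbp, Tef and Per2 were lower and Arntl was higher. In BPL liver Dbp, Tef, Per1, Per2 and Per3 were lower and Arntl was nearly level. Few of these BPL differences were called. The median difference of the 9 output genes in BPH was -0.23 in aorta and -0.22 in kidney, then -0.15 in heart and 0.023 in liver, and over all probe sets the median was within 0.02 of 0 in each comparison. Between 49.6% and 52.4% of all probe sets had BPH differences from BPN above 0. The 9 genes were read from the same arrays and share the BPN arrays. Among them, Per3 outside aorta and Ciart in kidney and liver lay at low levels. Against BPL, Arntl differed in BPH by 0.15 in aorta and 0.070 in liver, neither called, where Nr1d1 fell. Of the other genes with ROR elements, Clock, Npas2, Cry1 and Nfil3, some were called there, where 11% and 5.77% of all probe sets were called. Clock and Npas2 were not called, at -0.041 and -0.041 in aorta and -0.17 and -0.17 in liver. Nfil3, a repressor at D-boxes, rose in BPH against BPL aorta by 1.15 ± 0.22 (limma adjusted p = 0.000574), with no overlap, and Cry1, a Cryptochrome, rose there by 0.98 ± 0.25 (0.00943) and in liver by 0.54 ± 0.15 (0.0408). They were called in BPH against BPL in neither heart nor kidney, and Nfil3 in liver differed by -0.31 ± 0.10 (limma adjusted p = 0.0798). In aorta the BPN means of Nfil3 and Cry1, 10.48 and 6.32, lay nearer BPH (10.75 and 6.43) than BPL (9.60 and 5.45). BPH aorta differed from BPN by only 0.27 ± 0.26 and 0.11 ± 0.30, neither called, although Nr1d1 fell there. In liver Cry1 was also near level between BPH and BPN, at 4.63 and 4.61, against 4.09 in BPL.

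Whether the difference of BPH from BPN differed among the 4 tissues was tested for each gene with a moderated F test in 1 fit of all 12 groups, with arrays weighted by tissue. It passed for Nr1d1 (limma adjusted p = 0.0457), Nr1d2 (6.64e-06) and Tef (0.00271), 3 of 10 members, against 15.6% of all probe sets. For Nr1d2 the differences ran from -1.07 in aorta to 0.42 in liver. For BPL against BPN it passed for Nr1d2 (0.010), Per2 (0.0339) and Per3 (0.0415), against 18.2% of all. Without aorta, amplified by another protocol, 1 member was called in each. The Nr1d1 result was lost in 22 of 44 fits without 1 array. The fit takes arrays of different tissues as independent, while the labels give heart, kidney and liver arrays the same numbers without saying that a number marks a mouse. With strain and number as a random block, added after seeing the data, the correlation over all probe sets was 0.0054 and the same members were called. With the correlation of each gene, between -0.044 and 0.75, no call was lost, and Dbp (adjusted p = 0.0385) was added for BPH against BPN, and Nr1d1 (0.00347) and Tef (0.0242) for BPL against BPN.

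Within a strain, arrays with more Arntl had less Dbp in aorta. There, deviations from the strain mean of Arntl and Dbp gave Pearson r = -0.75 (adjusted permutation p = 0.0048) and Spearman rho = -0.59 (adjusted permutation p = 0.0871) over 23 arrays, and Arntl with Nr1d1 gave r = -0.53 (0.0423) and rho = -0.49 (0.0871). Without the 2 arrays farthest from the median of Arntl, r was -0.50 and -0.41, with adjusted permutation p = 0.418 and 0.221, so these relations rest on those arrays. The labels do not tie the aorta arrays to mice. Of 12 relations in all, for Arntl with Nr1d1, Arntl with Dbp and Dbp with Per3 in 4 tissues, the other 10 were not below 0.05 after adjustment. Dbp with Per3 in kidney gave r = 0.70 and rho = 0.66 (adjusted permutation p = 0.0724 and 0.0888), and r was 0.33 without the 2 farthest arrays. Batches could not be tested, since the labels give none.

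**Figure D3:**
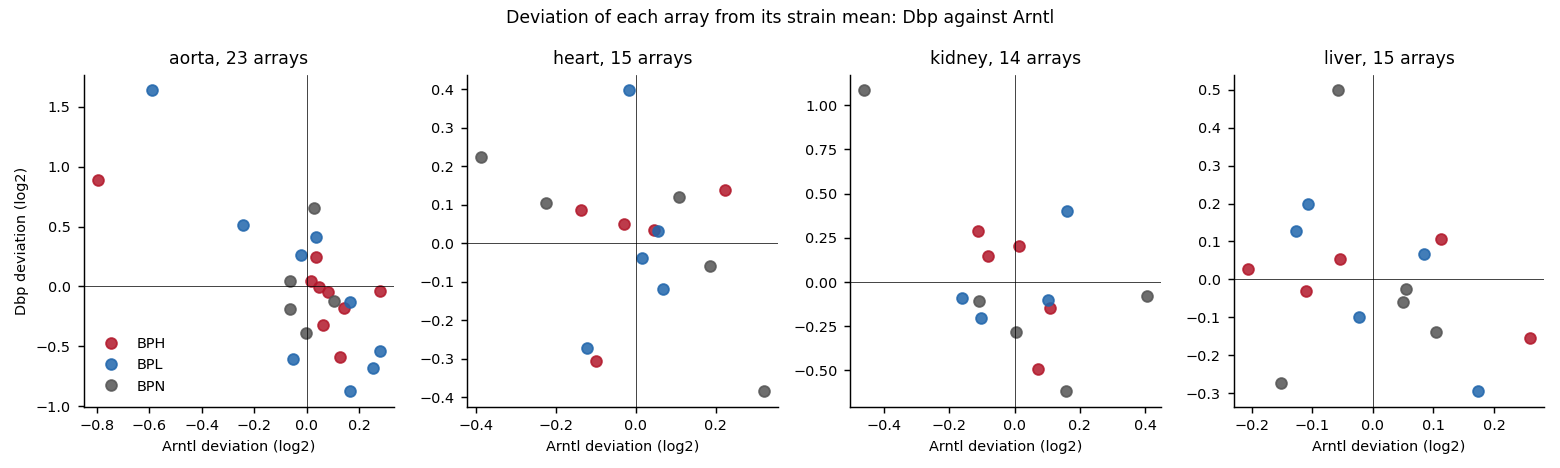
Deviation of each array from its strain mean in log2 units for Arntl (horizontal axes) and Dbp (vertical axes) in aorta (23 arrays), heart (15), kidney (14) and liver (15), coloured by strain. In aorta the lowest Arntl arrays are BPH 10 and BPL 23, which are high in Dbp, and r over all arrays is -0.75.

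The genes whose within-strain deviations were most like those of Dbp, averaged as Pearson r over the 4 tissues among 13155 genes above the lower quartile everywhere, were Nr1d2 (0.61) and Tef (0.52), followed by the other genes Tcea3 (0.49), Orc5 (0.49), Pllp (0.48), Zfp639 (0.48) and Plcg2 (0.47). Those most opposite were Ppard (-0.56), Lss (-0.54), Prkar1b (-0.49), Gm19345 (-0.45) and Dhodh (-0.44), and Arntl was among them at -0.49. Arntl was most like Cry1 (0.61), a Cryptochrome, then Agpat3 (0.56), Leo1 (0.55), Prr13 (0.55) and Atg12 (0.53), with Gm4984 (-0.51), Zdbf2 (-0.49), Kctd12 (-0.49), Gp9 (-0.48) and Atp7b (-0.47) at the other end, beside Dbp and Nr1d2 (-0.48). These are descriptions over 67 arrays, since the arrays share tissues and normalisation.

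In heart, kidney and liver, but not in aorta, most members had their largest SD in BPN. Of the 10 members, 7 had their largest SD in BPN in heart, 7 in kidney and 7 in liver, and 1 in aorta, where 26.5%, 33.1%, 40.4% and 28.3% of all probe sets did so. The median SD of the members in heart was 0.11 in BPH, 0.14 in BPL and 0.22 in BPN, while that over all probe sets was 0.12, 0.12 and 0.11. In kidney it was 0.14, 0.17 and 0.26, and in liver 0.14, 0.17 and 0.27. No test was made of these spreads, which were looked at after the data were seen. The members were read from the same arrays and some deviated together, so they are not separate cases. Per3 outside aorta and Ciart in kidney and liver lay at low levels. In aorta the order was not kept, with 0.42 in BPH, 0.30 in BPL and 0.34 in BPN.

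**Figure D4:**
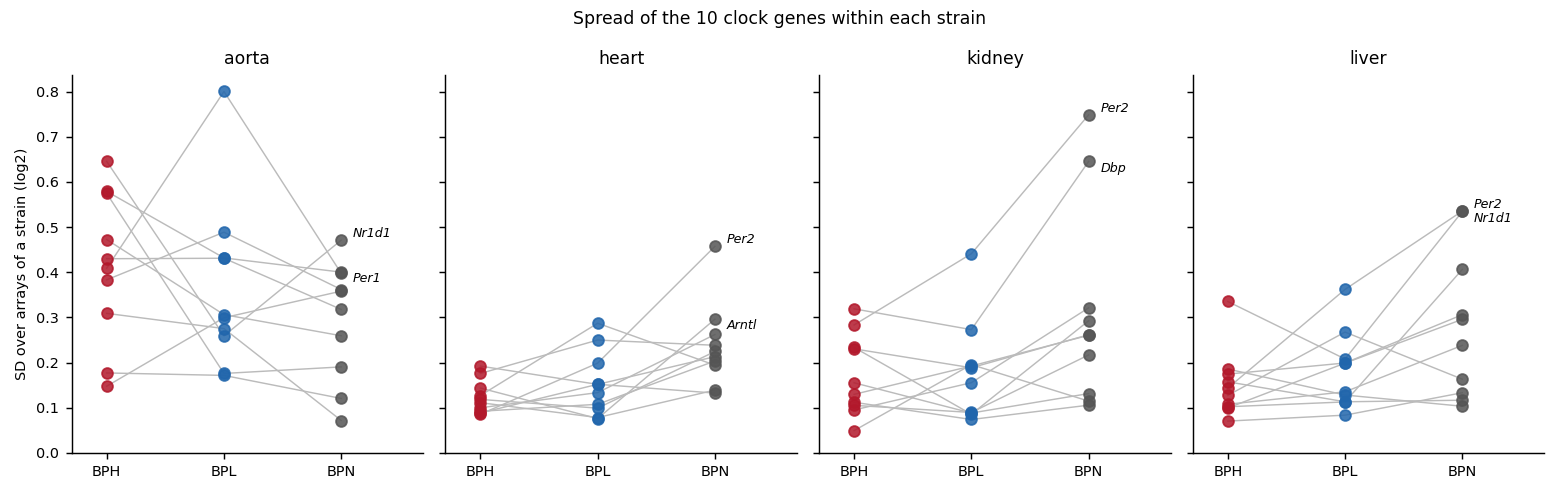
SD over the arrays of a strain (vertical axis, log2 units) of the 10 clock genes in BPH, BPL and BPN (horizontal axes), with a line joining each gene, and the 2 most variable BPN genes named. In kidney Per2 has the largest SD, 0.75 in BPN, and Dbp 0.65.

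Other clock genes, from lists chosen with earlier results of these data known, gave few calls. Of the other ROR element genes, Clock, Npas2, Cry1 and Nfil3, none was called in BPH against BPN in any tissue. Against BPN, Nfil3 fell in BPL aorta by -0.88 ± 0.26 and Cry1 fell in BPL liver by -0.52 ± 0.15, each 1 of 4 genes, where 10.3% and 7.47% of all probe sets were called. The 2 genes that rose in BPH against BPL aorta, given above, and the 1 in liver were among these 4, where 11% and 5.77% of all were called. Of the 6 other E-box genes, Wee1, a cell cycle kinase, rose in BPH heart (0.25 ± 0.07) and BPH liver (0.43 ± 0.08). It rose in BPH heart also against BPL (0.32 ± 0.07). Over all probe sets, 7.02%, 7.14% and 8.57% were called in these comparisons. Cry2 and Usp2 fell in BPL heart (-0.25 ± 0.07 and -0.31 ± 0.07), or 2 of 6 against 5.2% of all probe sets called lower. Among 10 measured modifiers of the clock, Rora, an activator at ROR elements, fell in BPH aorta (-0.59 ± 0.14) and BPL aorta (-0.74 ± 0.14) and rose in BPH kidney (0.39 ± 0.10). Btrc, a ligase for Period proteins, fell in BPL aorta (-0.30 ± 0.10), and Rorb was called higher in BPH heart at a low level. Over all probe sets, 9.15% were called against BPN in BPH aorta, 10.3% in BPL aorta, 7.05% in BPH kidney and 7.02% in BPH heart.

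Genes reported as targets of the PAR bZIP and REV-ERB factors moved in several tissues. Alas1, the first enzyme of heme synthesis, fell in BPH kidney by -0.79 ± 0.14 and liver by -1.44 ± 0.33, and in BPL kidney by -1.04 ± 0.15 and liver by -2.34 ± 0.33. It was 1 of 3 measured targets of the PAR bZIP factors called in those comparisons, where between 6.24% and 7.47% of all probe sets were called. Cyp2b10 fell in BPH heart (-1.03 ± 0.17) and BPL heart (-0.87 ± 0.17), where 7.02% and 9.34% of all probe sets were called. Its mean log2 levels there, 3.37 in BPH and 3.53 in BPL, lay close to the lower quartile of heart arrays, at most 3.32. Cyp2b10 was not called against BPN in the other tissues, liver among them, and Nr1i3 was not called. Elovl3, a fatty acid elongase, fell in liver by -1.28 ± 0.14 in BPH and -1.05 ± 0.14 in BPL, and rose in aorta by 3.31 ± 0.39 and 4.51 ± 0.39. In BPL, Nr1d1 was called against BPN in neither of these tissues, and Nr1d2 was called, as higher, in liver only. Fgf21 fell in BPH liver by -0.94 ± 0.17. Over all probe sets, 7.14% and 7.47% were called against BPN in BPH and BPL liver, and 9.15% and 10.3% in aorta. Insig2 was not called. Of 10 measured genes that follow body temperature, heat stress or glucocorticoids, 1 fell in BPH against BPN aorta, 1 rose and 1 fell in heart, 2 rose and 2 fell in kidney, and 2 rose and 1 fell in liver, where 9.15%, 7.02%, 7.05% and 7.14% of all probe sets were called. In BPL against BPN 3 fell in aorta, 1 rose and 2 fell in heart, 1 rose and 3 fell in kidney, and 3 fell in liver, against 10.3%, 9.34%, 6.24% and 7.47%. They included Cirbp, a cold-inducible RNA-binding protein, which rose in BPH heart (0.55 ± 0.09), kidney (0.96 ± 0.11) and liver (0.93 ± 0.15), and in BPL heart (0.32 ± 0.09) and kidney (0.63 ± 0.11). The heat shock genes Hspa1b and Hsph1 fell in BPL aorta by -2.65 ± 0.32 and -1.58 ± 0.24, and in BPL liver by -1.38 ± 0.33 and -1.42 ± 0.19, and Hspa1b fell in BPH liver by -2.03 ± 0.33 and in BPL kidney by -0.92 ± 0.21. Sgk1, a kinase induced by glucocorticoids, fell in BPH heart (-0.40 ± 0.09), BPL heart (-0.35 ± 0.09) and BPL kidney (-0.78 ± 0.14). The part of these in the clock differences was not tested.

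Markers of other cell types moved with some of these results, and in bulk tissue fewer cells of a type and less RNA per cell cannot be told apart. In aorta 4 of 5 lymphocyte markers fell in BPH against BPN, where 4.7% of all probe sets were called lower, with mean log2 levels of 3.70 to 5.61 in BPH arrays and 4.85 to 6.06 in BPN arrays, and of 6 adipocyte markers Ucp1 rose and Lep fell, with mean levels of 9.52 to 10.58 in BPH and 9.10 to 10.56 in BPN. Of 6 striated muscle markers there, 2 rose and 1 fell, with 5.53 to 6.92 in BPH and 5.63 to 6.10 in BPN. In that comparison 9.15% of all probe sets were called. The counts of macrophage markers that fell in BPH against BPN were 2 of 4 in heart (8.06 to 8.32 in BPH, 8.52 to 9.04 in BPN), 2 of 4 in kidney (6.20 to 6.40 in BPH, 6.74 to 7.12 in BPN) and 4 of 4 in liver (6.98 to 7.35 in BPH, 7.56 to 7.90 in BPN), where 3.51%, 3.39% and 3.85% of all probe sets were called lower. In BPL against BPN they were 4 of 4 in heart and 3 of 4 in liver, against 5.2% and 3.7%. In BPH against BPL heart, where Nr1d1 fell, 4 of 6 adipocyte markers also fell, against 3.97% of all probe sets, with mean levels of 5.28 to 7.28 in BPH and 6.13 to 8.44 in BPL. In BPH heart, smooth muscle markers lay at 6.47 to 6.71, against 6.73 to 6.90 in BPN, and red cell markers at 7.38 to 8.07, against 7.10 to 7.32. In kidney, the mean level of the 4 adrenal markers was 3.40 to 3.61 in BPH and 3.50 to 7.62 in BPL, against 3.64 to 8.04 in BPN, with none of them called against BPN. The kidney markers there lay at 9.91 to 10.08 in BPH and 9.46 to 9.63 in BPL, against 9.80 to 9.86 in BPN. Against BPN, Slc12a3 was called higher in BPH (0.33 ± 0.08), and Aqp2 and Nphs1 lower in BPL (-0.45 ± 0.10 and -0.24 ± 0.07). Umod was called in neither. The red cell marker Slc4a1 was called higher in BPH kidney (0.55 ± 0.09) and Alas2 was not. Over all probe sets, 7.05% were called in BPH against BPN kidney and 6.24% in BPL against BPN. The mean of Alb and Ttr, the 2 measured liver markers, ran from 6.40 to 7.14 in BPH and 6.95 to 7.27 in BPL. In BPN it ran from 4.97 to 5.09. Of these 2 liver markers only Ttr was called against BPN in kidney, at 3.13 ± 0.09 in BPH and 4.16 ± 0.10 in BPL. Alb differed by 0.22 ± 0.19 and -0.0068 ± 0.20. Apart from leaving out the arrays high in adrenal markers, the part of these cells in the clock results was not tested.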

How the data were processed

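Transcript intensities of 67 arrays were analysed, 23 of aorta, 15 of heart, 14 of kidney and 15 of liver. The deposited values are linear intensities per probe set, normalised by the authors with RMA per the submitters' processing notes. The array type is a Merck/Affymetrix custom mouse array, and aorta RNA was amplified by another protocol than the other tissues, per the labels. Log2 was taken with a pseudocount of 0. Of 38385 probe sets, 24478 had 1 gene symbol in the platform table, 65 had several and 13842 were not listed. Each tissue was fitted in limma 3.58.1 (R 4.3.3) with a mean per strain, lmFit and eBayes, and p-values were adjusted by Benjamini-Hochberg over all probe sets. A joint fit of 12 groups weighted by tissue gave the F test among tissues. Correlations of within-strain deviations used 100000 permutations within strains (Python 3.11.15, NumPy 2.4.6). The fits and permutations were tested on simulated data. The members and lists were chosen with earlier results of these data known. The genes named were all 10 members, at most 3 called genes per list and tissue, and the 5 genes most and least like Dbp and Arntl. Lists covered other ROR element and E-box genes, clock modifiers, PAR bZIP and REV-ERB targets, systemic cues, and cell type markers. Alternatives were a pseudocount of 16, leaving out dim probe sets, quantile normalisation, median centring, array weights, a trended prior, other sample sets, the replicate block, and leaving out each array, with leaving out kidney arrays high in adrenal markers and a random block of replicate number across tissues added after seeing the data. Detection calls and batches were not given.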

Additional observations from a re-analysis of the deposited data

Results flagged for a closer look

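In 120 groups of 4, 5 or 9 arrays, 7 member values stood far from the rest of their group, where chance gives about 1 in 20. Of these, 5 were in BPH. Arntl was lowest in aorta BPH 10, at 8.31 against 9.13 in the next array, an array that was also high in Dbp. Nr1d2 was lowest in heart BPH 3, at 9.11 against 9.34, Dbp in heart BPH 5, at 5.22 against 5.56, Tef in heart BPH 5, at 7.36 against 7.59, and Tef in kidney BPH 3, at 8.49 against 8.68. Per3 was highest in heart BPL 1, at 2.94 against 2.75, and Ciart in liver BPN 4, at 2.89 against 2.59, both at low levels.

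The difference between strains varied among the 4 tissues for 6 results, by a moderated F test in limma. For BPH against BPN these were Nr1d1 (adjusted p = 0.0457), Nr1d2 (6.64e-06) and Tef (0.00271). For BPL against BPN they were Nr1d2 (0.010), Per2 (0.0339) and Per3 (0.0415), the last of which lies at low levels outside aorta.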

How the results depend on the processing

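Counts of called members kept within 1.5 times in all alternatives run for BPH against BPN and BPH against BPL in aorta, BPH against BPL in kidney and BPL against BPN in liver. The others moved as follows, and the cause was not tested. Fits with only the 2 strains compared gave 1 member for aorta BPL against BPN (0 in the main result), 1 for heart BPH against BPN (3), 2 for heart BPH against BPL (1), 0 for kidney BPH against BPN (1), 0 for kidney BPL against BPN (1), 0 for liver BPH against BPN (1) and 2 for liver BPH against BPL (1). The joint fit of 12 groups gave 1 for aorta BPL against BPN and 0 for heart BPH against BPN, heart BPL against BPN, heart BPH against BPL, kidney BPH against BPN and liver BPH against BPN. Quantile normalisation gave 1 for heart BPH against BPN, and 2 for liver BPH against BPN and for liver BPH against BPL, as did array weights and leaving out dim probe sets for those liver comparisons. A trended, robust prior gave 2 for heart BPH against BPL and 0 for kidney BPL against BPN and liver BPH against BPN, while a pseudocount of 16 and median centring gave 0 for liver BPH against BPN. Replicate numbers are shared between strains in heart, kidney and liver, but same-numbered arrays correlated above 0.1 in 4 of 15, 1 of 13 and 3 of 15 pairs, so the numbers were not taken as pairing the samples. With the replicate block the count was 2 for heart BPL against BPN, kidney BPH against BPN and liver BPH against BPN, and it was within 1.5 times elsewhere. Without 1 array the count ran from 0 to 1 for aorta BPL against BPN, 0 to 3 for heart BPH against BPN, 1 to 2 for heart BPH against BPL, 1 to 3 for heart BPL against BPN, 0 to 2 for kidney BPH against BPN, 0 to 1 for kidney BPL against BPN, 0 to 2 for liver BPH against BPN and 1 to 2 for liver BPH against BPL. The members whose difference varied among tissues numbered 1 without aorta for BPH against BPN, 1 without aorta, 1 with equal array weights and 1 to 3 without 1 array for BPL against BPN (3 in each main result). Without the 2 arrays farthest from the median of the first gene, Arntl with Nr1d1 gave r = -0.41 in aorta and 0.15 in heart, Arntl with Dbp -0.50 and 0.15, and Dbp with Per3 in aorta -0.16. Without the 3 kidney arrays high in adrenal markers, added after seeing the data, the count was 3 for kidney BPH against BPN and within 1.5 times for the other kidney comparisons. That fit kept only BPN 1, 2 and 3 of the BPN kidney arrays. A random block of number across tissues, added likewise, gave 5 members for BPL against BPN with the correlation of each gene, and counts within 1.5 times otherwise. Over 3515 alternative values of single members, 3285 kept direction and side of the threshold, 106 lost the call, 39 gained it and 85 changed sign, all of these last from values that were not called. Outside leaving out arrays, sign changes were Per3 in heart BPH against BPL (0.0044 with median centring, 0.022 with array weights), Hlf in heart BPH against BPN (-0.0065, array weights), Ciart in kidney BPL against BPN (0.016 with quantile normalisation, 0.0083 with median centring), Tef in kidney BPH against BPL (-0.0045, median centring), Dbp in kidney BPH against BPL (0.069 with array weights, 0.023 with the replicate block, 0.083 without the arrays high in adrenal markers), Per3 in liver BPH against BPN (-0.00035 with a pseudocount of 16, -0.0013 with median centring) and Hlf in liver BPL against BPN (-0.00052, array weights). Without 1 array, the values that changed sign had these ranges. In aorta BPH against BPL, Hlf ran between -0.027 and 0.051 and Ciart between -0.10 and 0.012. In aorta BPL against BPN, Nr1d2 ran between -0.15 and 0.020, Per1 between -0.13 and 0.10 and Ciart between -0.23 and 0.013. In heart BPH against BPN, Hlf ran between -0.040 and 0.10 and Per1 between -0.015 and 0.074. In heart BPH against BPL, Dbp ran between -0.16 and 0.012, Hlf between -0.093 and 0.020 and Per3 between -0.035 and 0.035. In heart BPL against BPN, Nr1d1 ran between -0.018 and 0.11, Nr1d2 between -0.13 and 0.015, Hlf between -0.0012 and 0.12 and Ciart between -0.016 and 0.081. In kidney BPH against BPN, Per1 ran between -0.022 and 0.057. In kidney BPH against BPL, Dbp ran between -0.12 and 0.083, Tef between -0.0064 and 0.069 and Per1 between -0.14 and 0.014. In kidney BPL against BPN, Nr1d2 ran between -0.13 and 0.049, Hlf between -0.066 and 0.016, Per3 between -0.14 and 0.031 and Ciart between -0.058 and 0.016. In liver BPH against BPN, Dbp ran between -0.046 and 0.15, Per3 between -0.071 and 0.093 and Arntl between -0.0026 and 0.11. In liver BPH against BPL, Dbp ran between -0.028 and 0.096, Per3 between -0.013 and 0.11 and Ciart between -0.023 and 0.16. In liver BPL against BPN, Dbp ran between -0.092 and 0.10, Tef between -0.11 and 0.053, Hlf between -0.034 and 0.050, Per1 between -0.074 and 0.0082, Per3 between -0.13 and 0.037, Ciart between -0.039 and 0.14 and Arntl between -0.051 and 0.024. The number of arrays and the lack of detection calls limit the precision, most of all for Per3 and Ciart.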

Other observations

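Deviations of arrays with the same replicate number were compared across tissues for Dbp, Nr1d2, Per2 and Arntl, chosen after the data were seen. The labels do not say that a number marks 1 animal. Aorta was left out, where most arrays have other numbers but a few of BPH share theirs with the other tissues. Within-strain deviations of Nr1d2 in heart and kidney arrays of the same number correlated with r = 0.91 and rho = 0.78 over 14 pairs (adjusted permutation p = 0.00816 and 0.027), and without the 2 pairs farthest from the median r was 0.84. Per2 gave r = 0.78 for heart with kidney (14 pairs), 0.76 for heart with liver (15) and 0.76 for kidney with liver (14), each with an adjusted permutation p of 0.0723. The rho values were 0.86, 0.64 and 0.72 (adjusted permutation p = 0.0299, 0.149 and 0.116), and r was 0.90, 0.69 and 0.70 without the 2 farthest pairs. All 12 relations, for Dbp, Nr1d2, Per2 and Arntl in 3 pairs of tissues, were positive, between 0.30 and 0.91, and after adjustment over the 12 only Nr1d2 in heart with kidney was below 0.05 for r, and only Nr1d2 and Per2 in heart with kidney for rho.

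The BPN arrays numbered 1 held the highest Dbp of their strain in heart (6.20), kidney (7.48) and liver (4.25), and the highest Nr1d2 in heart (9.99), kidney (10.37) and liver (8.37). They also held the lowest BPN Arntl in heart (7.27) and kidney (6.98), while in liver, at 7.43, Arntl was second lowest.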
